A study of Homo sapiens with 8 samples.

Results

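The ABCA genes encode subfamily A of the ATP-binding cassette (ABC) transporters, and 5 of them, ABCA2, ABCA3, ABCA4, ABCA5 and ABCA7, were found by symbol among the 3666 genes of the table that the authors deposited. All 5 transcripts were lower in the cells with high permeability to lactic acid, with log2 changes from -0.27 to -0.79, and each was lower in all 4 repeats. In the table, 1460 genes (39.8%) were lower in all 4 repeats and 1510 were listed as lower, so nearly all genes listed as lower share this. After correction for transcript GC content and length, ABCA4 and ABCA5 kept their calls and ABCA2, ABCA3 and ABCA7 did not, and without pairing by repeat ABCA5 alone passed. The table holds only genes that the authors had called different between the same libraries, so the other ABCA genes were not analysed here, and membership itself carries the selection for a difference.

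ABCA proteins are full-size membrane transporters that use ATP to move phospholipids, sterols and related lipids across or out of membranes. Some act at the cell surface, where they load lipid onto apolipoproteins, and others act in lysosomes and lysosome-related organelles. They are best known from other tissues, such as lung, retina and brain, and the subfamily includes ABCA1, the cholesterol exporter that is mutated in Tangier disease.

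The cells were MIA PaCa-2, an established line from a human pancreatic ductal adenocarcinoma, given in the labels as wild type in genotype and without treatment. Fluorescence-activated sorting took 2 extremes of permeability to lactic acid, called PHLac-low and PHLac-high, after a short exposure to medium with lactate that was then washed out, and both fractions shared this exposure. The sort was repeated 4 times and gave 1 library of each fraction per repeat, so 4 PHLac-low libraries were paired with 4 PHLac-high libraries. The labels do not say whether the repeats were separate cultures, so p-values measure the spread between these 4 sorts. The whole model is 1 cell line grown in culture. The series text treats the phenotype as reporting metabolic rate, and the comparison asks which transcripts differ between its extremes.

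Values are normalised counts, that is, read counts divided by 1 size factor per library. Reads in the listed genes ranged from 8979276 to 23176205 per library and size factors from 0.755 to 2.09. Of the 10 epithelial markers 2 were in the table, KRT19 and CLDN7. KRT19 had 17367 ± 3619 normalised counts in the low fraction against 20359.6 ± 3930.5 in the high fraction, and CLDN7 had 96.4 ± 53.2 against 53.8 ± 31.1 (SD, n = 4). Markers of leukocytes, fibroblasts and other cell types were represented by 5 of 15 genes (PTPRC, CD68, CD14, COL1A1 and ACTA2), whose summed normalised counts ran from 1769 to 3719 over the PHLac-low libraries and from 1740 to 5450.2 over the PHLac-high libraries, and none of these 5 genes was at 0 in any library. That sum is carried by CD68 and CD14, which rose by 0.55 and 0.47 on the log2 scale (limma with the repeat as a block). PTPRC, a leukocyte gene, fell by 1.36 and ACTA2, the smooth muscle actin, by 0.98, both with no overlap between the fractions. The collagen gene COL1A1 fell by 0.64. Over all listed genes, 36.7% had no overlap between the fractions in either direction. Of 9 mesenchymal markers 2 were in the table, also with no overlap between the fractions: SNAI2 rose by 2.09 and SPARC fell by 0.83. The summed normalised counts of these 2 ran from 3224 to 5889 over the PHLac-low libraries and from 2424 to 3618 over the PHLac-high libraries, with neither at 0. The part of these markers in the results below was not tested.

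The members lie on 5 chromosomes. In GRCh38 with GENCODE release 29, ABCA2 (Entrez 20) spans chr9:137007227-137028922 on the minus strand, ABCA3 (Entrez 21) chr16:2275881-2340746 on the minus strand, ABCA4 (Entrez 24) chr1:93992835-94121132 on the minus strand, ABCA5 (Entrez 23461) chr17:69244311-69327244 on the minus strand and ABCA7 (Entrez 10347) chr19:1040101-1065572 on the plus strand. Their longest coding transcripts have 8154, 6609, 7309, 8220 and 6816 bases in that order. The antisense gene C9orf139 overlaps the ABCA2 gene by 1459 bases. The pseudogene ABCA17P overlaps ABCA3 by 1597 bases on the opposite strand, and the pseudogene AC106820.1 overlaps it by 420 bases on the same strand. ABCA10 overlaps ABCA5 by 536 bases on the same strand, and the pseudogene SNRPGP4 overlaps it by 229 bases on the opposite strand. The strand setting of the read counting is not given in the sources used here, so reads in these overlaps cannot be divided with certainty. No annotated gene overlaps ABCA4 or ABCA7.

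Because the 5 transcripts moved in the same direction, their start regions were compared. RefSeq (GRCh38.p14) gave windows for 4 of the 5 members, with 2 alternative starts for ABCA2 and none for ABCA4. The bases ahead of a start are shown 5′ to 3′, up to the first base that an annotated exon of the gene covers, with each GC box (GGGCGG or its reverse complement) in capitals. These are the ABCA2 downstream start at chr9:137028289-137028487 (minus strand), ABCA3 at chr16:2340747-2340978 (minus strand), ABCA5 at chr17:69327245-69327383 (minus strand) and ABCA7 at chr19:1039857-1040100 (plus strand).
ABCA2: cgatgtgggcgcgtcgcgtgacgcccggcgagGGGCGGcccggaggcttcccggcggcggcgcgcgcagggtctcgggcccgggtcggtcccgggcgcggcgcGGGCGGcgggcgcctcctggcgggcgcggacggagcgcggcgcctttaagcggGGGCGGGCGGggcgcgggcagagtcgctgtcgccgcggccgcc
ABCA3: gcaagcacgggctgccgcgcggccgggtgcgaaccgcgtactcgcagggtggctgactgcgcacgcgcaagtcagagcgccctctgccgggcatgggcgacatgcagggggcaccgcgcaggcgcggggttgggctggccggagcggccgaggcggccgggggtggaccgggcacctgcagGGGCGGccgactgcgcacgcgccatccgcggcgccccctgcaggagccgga
ABCA5: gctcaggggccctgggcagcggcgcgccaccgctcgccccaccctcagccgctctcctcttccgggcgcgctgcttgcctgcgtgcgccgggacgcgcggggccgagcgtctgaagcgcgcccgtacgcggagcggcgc
ABCA7: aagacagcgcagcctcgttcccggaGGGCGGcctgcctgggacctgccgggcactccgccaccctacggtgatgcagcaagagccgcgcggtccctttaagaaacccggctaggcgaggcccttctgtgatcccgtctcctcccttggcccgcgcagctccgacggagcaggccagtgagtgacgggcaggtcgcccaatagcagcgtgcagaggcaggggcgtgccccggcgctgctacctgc

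Over the full 250 bases ahead of each start, searched on both strands, a GC box was in 4 of the 5 member windows, against 63.0% of the 4021 windows of listed genes and 42.6% of all 35116 windows. The ABCA2 downstream window held 6 GC boxes, 4 of them in the bases shown (2 of these overlap each other), and those of ABCA3, ABCA5 and ABCA7 held 1 each. The other 2 boxes of ABCA2 and the 1 of ABCA5 are outside the bases shown, in the stretch that the gene's exons cover. The upstream window of ABCA2 held none. A CCAAT box (CCAAT) was in 1 window, that of ABCA7, against 31.7% of the listed windows. No member window held an E-box (CACGTG, in 7.88% of listed windows), the nuclear receptor half-site AGGTCA (8.65%) or the STAT palindrome TTCNNNGAA (5.07%). GC content of the windows was 85.6% and 65.2% for ABCA2 downstream and upstream, 79.2% for ABCA3 and for ABCA5, and 70.4% for ABCA7, with a median of 65.2% over the listed windows. The letters are a description of these windows only.

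ABCA2, an endolysosomal transporter linked to sterol and sphingolipid handling and most abundant in brain, was the most highly expressed member. From repeat 1 to repeat 4, its PHLac-low libraries had 7278, 10199, 9499 and 5491 normalised counts. The PHLac-high libraries had 5716, 7176, 7243 and 3136. The fractions overlapped, since 3 PHLac-high values lay above the PHLac-low value of repeat 4, but within each repeat the PHLac-high library was lower. The means were 8117 ± 2148 and 5818 ± 1921 (SD, n = 4), and the log2 change by limma, with the repeat as a block, was -0.51 ± 0.08 (SE), with an adjusted p of 0.00073. After GC and length correction the limma adjusted p of ABCA2 was 0.0731.

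ABCA7 is a close relative of ABCA1 that moves phospholipids, takes part in phagocytosis and is known as a risk gene for Alzheimer disease. It had 4929, 5569.6, 5406 and 3227 normalised counts in PHLac-low. Its PHLac-high values were 3767, 4112, 3752 and 1880.0. Repeats 1 to 3 did not overlap between the fractions, and the PHLac-low library of repeat 4 lay below the PHLac-high libraries of the other repeats. Its log2 change of -0.53 ± 0.07 (SE) had the smallest adjusted p of the 5 members in limma with the block (0.00045), and 0.127 was its adjusted p after the GC and length correction.

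ABCA3, the lamellar body transporter that loads phospholipid into lung surfactant, changed least. The PHLac-low libraries held 2394, 3290.1, 3301 and 1988 normalised counts, and the PHLac-high libraries 2175, 2867, 2835 and 1384. The fractions overlapped over most of their range, and the difference between repeats was larger than that between fractions. By blocked limma ABCA3 changed by -0.27 ± 0.08 on the log2 scale (SE), with an adjusted p of 0.00827, and the GC and length correction turned the sign, to 0.02 (adjusted p of 0.837). None of the 12 surfactant and lamellar body genes looked for was in the table.

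ABCA4, the photoreceptor transporter that clears retinaldehyde adducts of phosphatidylethanolamine and is mutated in Stargardt disease, was expressed at a low level. The PHLac-low libraries held 307, 428, 566 and 261 normalised counts, against 250.2, 264, 427 and 146 for PHLac-high. Repeat 3 was the highest and repeat 4 the lowest in both fractions, and the fractions overlapped. Blocked limma put ABCA4 at -0.56 ± 0.12 on the log2 scale (SE), with an adjusted p of 0.00309.

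ABCA5, a transporter of lysosomes and late endosomes, had the lowest level and the largest change. Its normalised counts were 258, 206, 297 and 205 in PHLac-low, from 167 to 620 reads per library. In PHLac-high they were 147, 146, 192 and 86.1, from 65 to 161 reads. It was the 1 member whose fractions did not overlap, as all 4 PHLac-low values lay above the highest PHLac-high value. Among all listed genes, 13.4% were lower in PHLac-high with no overlap. In blocked limma ABCA5 was at -0.79 ± 0.15 on the log2 scale (SE), with an adjusted p of 0.00183.

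**Figure D1:**
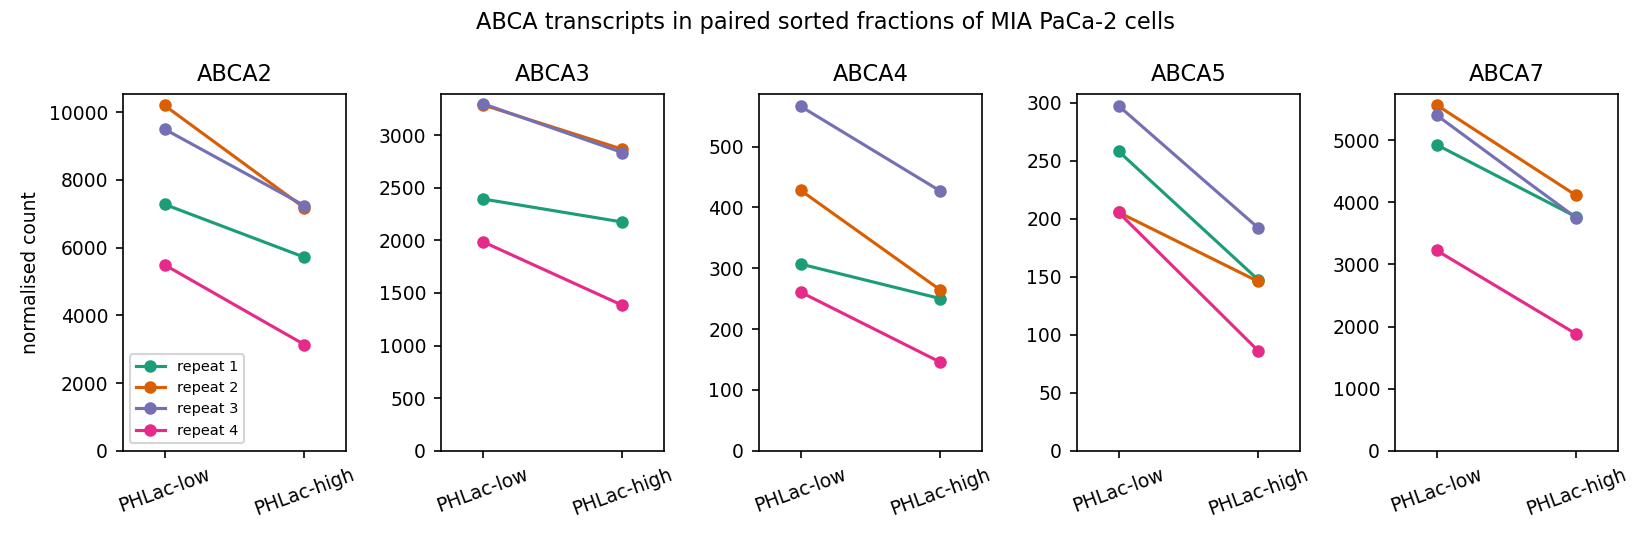
Normalised counts (vertical axes from 0, 1 panel per gene) of the 5 ABCA transcripts in the PHLac-low and PHLac-high library of each repeat, with a line joining the libraries of a repeat. All 20 lines fall from PHLac-low to PHLac-high, and repeat 4 is the lowest line in each panel.

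In limma with the repeat as a block, 5 of the 5 members passed an adjusted p of 0.05 and 5 were lower. The share called in either direction was 99.9% of the listed genes, and 41.2% were called lower, as the table was selected for a difference in these libraries. A log2 change of -0.5 or lower was found for 4 of the 5 members and for 19.4% of the listed genes. The members' median log2 change was -0.53, and the median over all listed genes was 0.25. The authors' deposited table gives -0.51 for ABCA2, -0.27 for ABCA3, -0.55 for ABCA4, -0.78 for ABCA5 and -0.53 for ABCA7, beside a median of -0.48 over its 1510 lower genes. Without the block, which ignores the pairing, limma called 1 member, ABCA5 (adjusted p = 0.0464), and the adjusted p of the other 4 ran from 0.113 for ABCA7 to 0.326 for ABCA3. The background without the block was 31.0% of listed genes called and 10.7% called lower. The unblocked edgeR test also called ABCA5 alone of the members (background 32.6%, 11.3% lower), as did unblocked DESeq2 (49.1%, 18.7% lower). With the block, all 5 members passed with upper-quartile scaling (background 64.4%, 41.2% lower), with DESeq2's own size factors (81.4%, 41.2% lower) and in limma without trend (98.0%, 40.5% lower). The factors of the first 2 settings were estimated from the listed genes alone, and each called 1510 genes lower, as the main fit did. The 5 members also passed in edgeR and in DESeq2 with the block, each with a background of 100% (41.2% lower). Among genes at or above the median level, of which 23.0% were called lower, the 3 members tested passed. Upper-quartile scaling gave -0.74 for ABCA2, -0.49 for ABCA3, -0.78 for ABCA4, -1.02 for ABCA5 and -0.76 for ABCA7, and moved the median over listed genes from 0.25 to 0.02 (log2). Of the listed genes that set its factors, 2153 were called higher and 1510 lower in the main fit. A downward shift of this kind can end higher calls more readily than lower ones.

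Repeat 4 stood apart for the 5 listed members. In both fractions its library had the lowest value of all 5 members, a position that 1078 of the listed genes (29.4%), and 51.5% of those lower in PHLac-high, shared. For ABCA5 in PHLac-low this was nearly a tie, with 205.4 normalised counts in repeat 4 and 205.6 in repeat 2. The log2 difference within repeat 4 was also the largest for all 5 members, against 37.8% of listed genes. For ABCA2 the difference was -0.35, -0.51, -0.39 and -0.81 in repeats 1 to 4. For ABCA5 it was -0.80, -0.49, -0.63 and -1.25, and for ABCA3 -0.14, -0.20, -0.22 and -0.52. Without repeat 4 the log2 changes were -0.42 for ABCA2, -0.19 for ABCA3, -0.46 for ABCA4, -0.64 for ABCA5 and -0.45 for ABCA7, and all 5 passed in limma with the block (adjusted p from 0.000298 to 0.0137).

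Levels were compared per length, as normalised counts per kilobase of the longest coding transcript. ABCA2 had 995 ± 263 per kilobase among PHLac-low libraries and 714 ± 236 among PHLac-high libraries, ABCA7 702 ± 157 and 496 ± 148, and ABCA3 415 ± 99.7 and 350.3 ± 106 (SD, n = 4). ABCA4 followed with 53.4 ± 18.7 and 37.2 ± 15.9, and ABCA5 with 29.4 ± 5.44 and 17.4 ± 5.29 (SD, n = 4). The order ABCA2, ABCA7, ABCA3, ABCA4, ABCA5 held within each of the 8 libraries. Across libraries the neighbours ABCA2 and ABCA7 overlapped, as did ABCA7 and ABCA3, while the gap between ABCA3 and ABCA4 was at least 6.45-fold in each library, with a median of 8.56-fold.

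**Figure D2:**
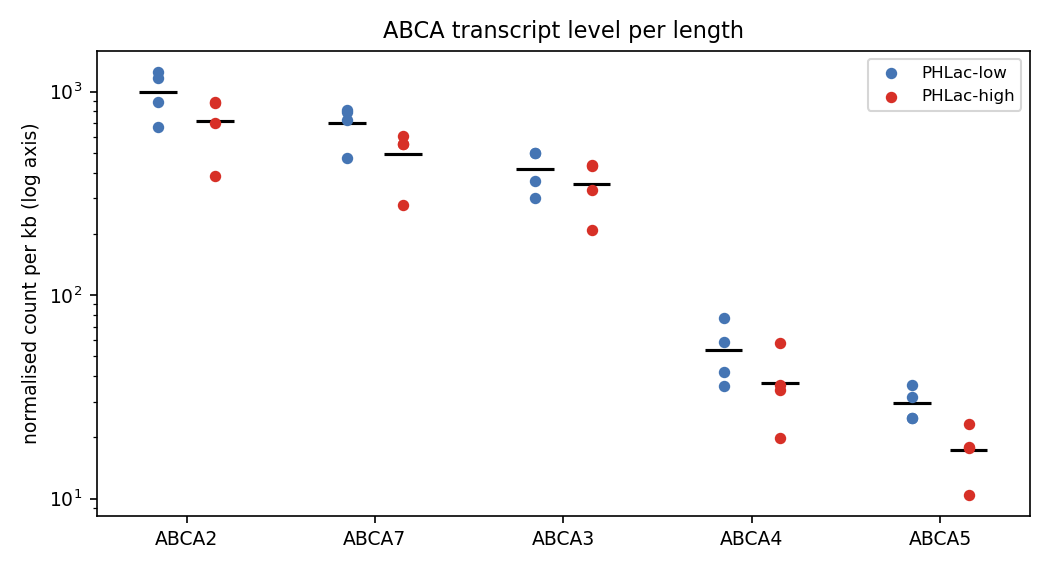
Level of each ABCA transcript as normalised count per kilobase (log axis), with 1 point per library and a bar at the mean of each fraction of 4 libraries. ABCA2, ABCA7 and ABCA3 lie well above ABCA4 and ABCA5 in both fractions.

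Ratios between members within a library do not depend on the size factor, and they were compared between fractions for all 10 pairs. The ratio of ABCA2 to ABCA7 differed least, with a log2 ratio of 0.75 ± 0.13 for PHLac-low and 0.77 ± 0.14 for PHLac-high (SD, n = 4), a difference of 0.02 ± 0.04 (SE) that was positive in 2 of 4 repeats. The ratio of ABCA3 to ABCA5 differed most, by 0.52 ± 0.10 (SE), and was higher in PHLac-high in 4 of 4 repeats. ABCA3 was also higher relative to ABCA7, by 0.26 ± 0.02 (SE), with 0.25, 0.24, 0.31 and 0.26 in repeats 1 to 4, and relative to ABCA2, since the log2 ratio of ABCA2 to ABCA3 was lower by 0.21, 0.31, 0.17 and 0.28. Of the 10 ratios 5 had the same sign in all 4 repeats. After GC and length correction 8 of the 10 did, and the ratio of ABCA3 to ABCA5 differed by 0.94, that of ABCA3 to ABCA7 by 0.15 and that of ABCA2 to ABCA5 by 0.75 in place of 0.28. The ratio of ABCA2 to ABCA4 went from 0.04 to 0.40, and that of ABCA4 to ABCA7 from -0.02 to -0.44. The ratio of ABCA3 to ABCA4 went from 0.29 to 0.59, and that of ABCA5 to ABCA7 from -0.26 to -0.79. With 4 pairs the exact two-sided sign-flip test cannot go below 0.125, so no ratio could pass, and the adjusted p over the 10 pairs ran from 0.25 to 0.875.

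The base composition of the transcripts divided the 5 members. ABCA7 had 64.7% GC, ABCA2 63.7% and ABCA3 60.4%, which put them in the quintile of listed genes with the highest GC content, where 72.6% of genes were lower in PHLac-high. ABCA4 had 52.4% GC and lay in the middle quintile, where 35.4% were lower. ABCA5 had 33.1% GC and lay in the lowest quintile, where 20.7% were lower. Among the 45 listed genes within 2 percentage points of the GC content of ABCA5, 31.1% were lower and the median log2 change was 0.28. Among the 347 around ABCA2, 74.1% were lower and the median was -0.36. By level the order was the other way round. Of the listed genes within 1.5-fold of the mean level of ABCA2, 20.4% were lower, and of those around ABCA5, 72.8%.

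**Figure D3:**
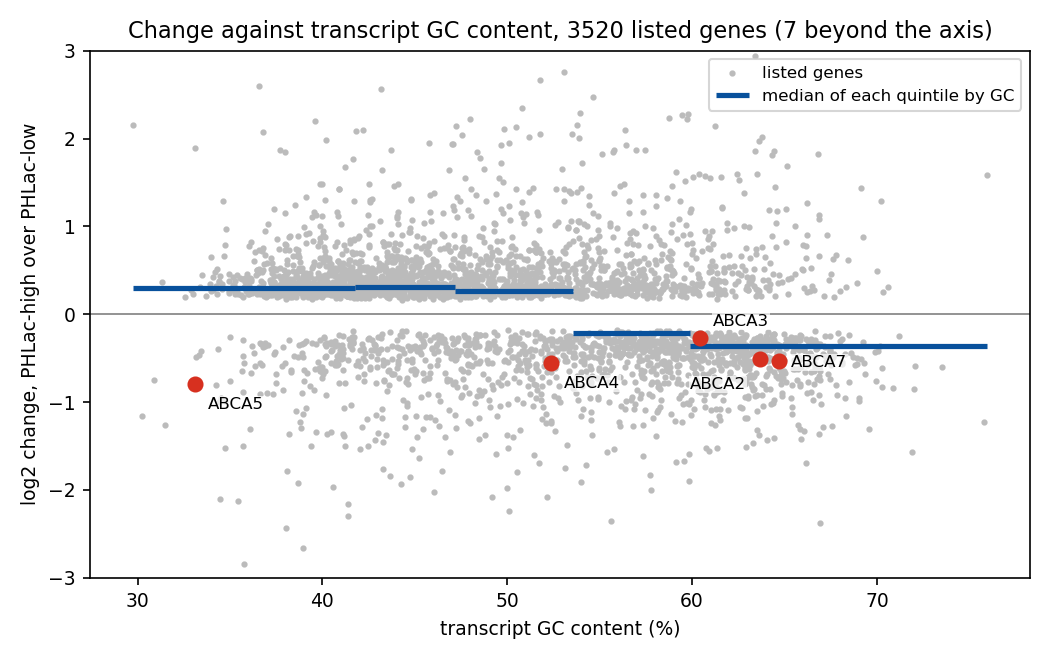
Log2 change of PHLac-high over PHLac-low against transcript GC content (%) for the listed genes with an annotated transcript (grey), with the 5 ABCA genes in red and the median of each quintile of genes by GC content in blue. ABCA2, ABCA3 and ABCA7 lie in the highest quintile, whose median is below 0, and ABCA4 and ABCA5 lie in quintiles whose median is above 0.

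When each library was corrected for a trend of its values with transcript GC content and length, the calls of the GC-rich members ended. In limma with the block ABCA2 was then at -0.17 ± 0.07 (SE, adjusted p = 0.0731), ABCA7 at -0.13 ± 0.07 (adjusted p = 0.127) and ABCA3 at 0.02 ± 0.08 (adjusted p = 0.837). ABCA3 was higher in PHLac-high in repeats 1 to 3 after the correction, at 0.12, 0.13 and 0.10, and lower in repeat 4, at -0.28. ABCA2 stayed lower in 4 of 4 repeats, at -0.06, -0.11, -0.05 and -0.46, and ABCA7 in 3 of 4. ABCA4 kept its call at -0.57 ± 0.12 (SE, adjusted p = 0.00342), and ABCA5 at -0.92 ± 0.14 (adjusted p = 0.000811), each also lower in 4 of 4 repeats. The corrected fit called 66.6% of the tested genes and 27.1% lower, and it moved the median over listed genes from 0.25 to 0.10 (log2). Correction for GC content alone also left 2 members (background 67.8%, 27.3% lower), and correction for length alone left all 5 (97.2%, 40.5% lower). Both were added after seeing the data, as was the corrected fit without the block, which left ABCA5 (26.6%, 10.4% lower). The correction was estimated from genes selected for a difference, so whether the trend is technical or part of the difference between the fractions cannot be told apart here.

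**Figure D4:**
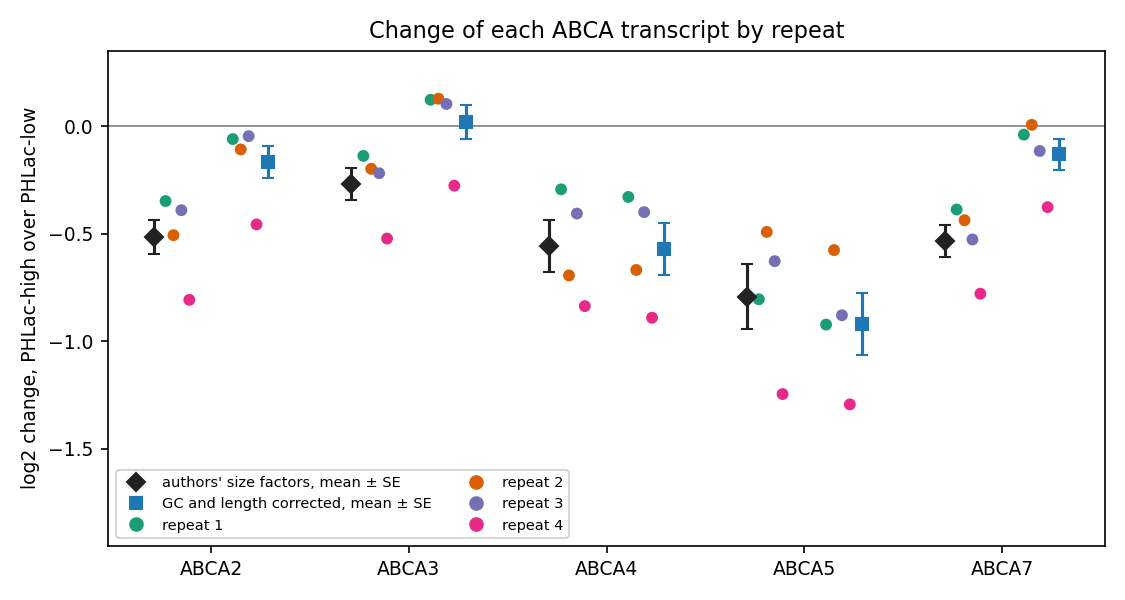
Log2 change of each ABCA transcript in each repeat (coloured points), with the mean ± SE from limma with the block before (black) and after (blue) correction for GC content and length. ABCA2, ABCA3 and ABCA7 move to between -0.17 and 0.02, while ABCA4 goes from -0.56 to -0.57 and ABCA5 from -0.79 to -0.92.

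Of 43 other ABC transporter genes looked for, 9 were in the table, and in limma with the block 4 were higher and 5 lower in PHLac-high (median log2 change -0.25). Over all 3666 listed genes 2153 were called higher and 1510 lower. ABCG2, the multidrug and urate exporter that marks side-population cells, rose most, from 54.1 ± 23.5 to 170 ± 47.3 normalised counts (SD, n = 4), a log2 change of 1.68 ± 0.16 (SE). ABCC2, an exporter of conjugated organic anions, rose by 0.45 ± 0.08, ABCF2, which has no membrane domain, by 0.31 ± 0.08, and ABCE1, a ribosome recycling factor, by 0.30 ± 0.06 (SE). The organic anion exporters ABCC3, ABCC10 and ABCC1 fell by 0.46, 0.39 and 0.25 on the log2 scale. The lysosomal cobalamin transporter ABCD4 fell by 0.31. Upper-quartile scaling left 2 of the 4 higher calls and all 5 lower calls, and the GC and length correction left 3 higher and 3 lower.

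**Figure D5:**
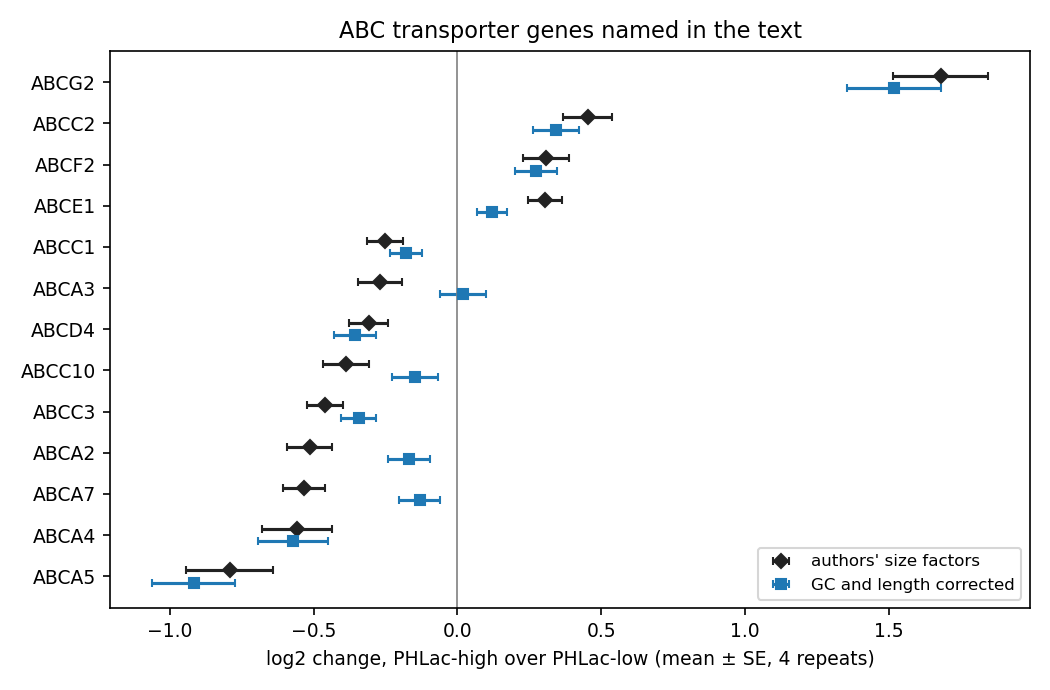
Log2 change (mean ± SE, limma with the block, 4 repeats) of the ABC transporter genes named here, with the authors' size factors (black) and after GC and length correction (blue). The 5 ABCA genes lie between -0.79 and -0.27 before the correction, and ABCG2 lies farthest to the right in both.

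Genes that act on the same lipids were also counted, beside the 2153 higher and 1510 lower calls over all 3666 listed genes. For sterol sensing and efflux 6 of 25 genes were in the table, 4 higher and 2 lower in limma with the block (median log2 change 0.47, against 0.25 over all listed genes). MYLIP, the ubiquitin ligase that degrades the LDL receptor and a target of the sterol receptor LXR, rose from 672 ± 208 to 1665 ± 257 normalised counts (SD, n = 4), with a log2 change of 1.36 ± 0.12 (SE). APOE, the apolipoprotein that accepts exported lipid, rose by 0.61 ± 0.21 (SE, adjusted p = 0.0182) and was higher in 3 of 4 repeats. SREBF1, which encodes a transcription factor of lipid synthesis, fell from 11919 ± 1989 to 8875 ± 837, by 0.42 on the log2 scale, and after GC and length correction it stood at -0.03 ± 0.06 (SE, adjusted p = 0.698). INSIG2, which retains the SREBP complex, fell by 0.36. Upper-quartile scaling left 2 of the 4 higher calls and both lower calls, and it ended those of APOE (0.39, limma adjusted p = 0.109) and INSIG1 (0.18, adjusted p = 0.0745). Its factors came from listed genes with more rises than falls. In this and the other lists, lost higher calls cannot be told apart from the downward shift that this scaling makes.

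Of 37 lysosomal genes of lipid handling, 7 were in the table, and 6 were higher in limma with the block, beside 2153 of all 3666 listed genes. The median log2 change over the 7 was 0.30, against 0.25 over all listed genes. GLA, the alpha-galactosidase of Fabry disease, rose by 0.67 ± 0.07 (SE), and the protease CTSL by 0.43 ± 0.06. With upper-quartile scaling 2 of these 6 higher calls were left.

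Of 36 sphingolipid genes 7 were in the table, 6 higher and 1 lower in limma with the block (median log2 change 0.54). Over all 3666 listed genes 2153 were higher and 1510 lower. SGMS2, a sphingomyelin synthase of the plasma membrane, went from 904 ± 161 to 3820 ± 781 normalised counts (SD, n = 4). The ceramidase ACER3 rose by 0.68 ± 0.09 (SE), and B4GALT6, a lactosylceramide synthase, fell by 0.91. Upper-quartile scaling left 5 higher and 1 lower.

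Of 25 flippase and scramblase genes, which move phospholipid between membrane leaflets, 4 were in the table, 1 higher and 3 lower (limma with the block, median log2 change -0.42). Of all listed genes, 41.2% were called lower. The P4-type ATPase ATP10D fell by 0.67 ± 0.15 (SE) and was lower in 4 of 4 repeats. ATP8B1, of the same type, fell by 0.47 ± 0.16 (SE, limma adjusted p = 0.0173) and was lower in 3 of 4 repeats. TMEM41B, a scramblase of the endoplasmic reticulum, rose by 0.64 ± 0.09 (SE). These 4 calls were left unchanged in direction by upper-quartile scaling and by the GC and length correction.

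Retinoid genes were listed because ABCA4 carries a retinoid substrate. Of 27 such genes 6 were in the table, 5 higher and 1 lower in limma with the block (median log2 change 0.69). The calls over all 3666 listed genes were 2153 higher and 1510 lower. RDH10, which makes retinaldehyde from retinol, rose from 510 ± 87.5 to 1404 ± 390 normalised counts (SD, n = 4), by 1.43 ± 0.10 (SE). CRABP2, a retinoic acid binding protein, rose by 1.38 ± 0.28, and CYP26A1, which degrades retinoic acid, fell by 1.39 on the log2 scale. Upper-quartile scaling left 4 higher and 1 lower. The numbers in each list are small, and nothing particular to a list follows from them.

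The listed genes whose values ran most like each member were found by Pearson's r of log2 values over the 8 libraries, given as a description. For ABCA2 these were GNAO1, C1orf145 and ADAM11 (r from 0.988 upward), for ABCA3 MYO15B, EFEMP2 and SLC22A17 (0.996, 0.995 and 0.993), and for ABCA4 C3, ARHGAP4 and SEMA3B (0.992, 0.989 and 0.986). For ABCA5 they were NEBL, IQCK and HP09053 (0.991, 0.980 and 0.976), and for ABCA7 FN3K, BBS4 and SCAMP5 (0.995, 0.993 and 0.992). All 15 were lower in PHLac-high, beside 41.2% of listed genes called lower in limma with the block. This direction follows largely from choosing genes for likeness to members that were lower in each repeat. None of the 15 was another ABCA gene. Among the members r ran from 0.72 for ABCA3 with ABCA5 to 0.97 for ABCA2 with ABCA3. All of these values share the same libraries and size factors, and with them the position of repeat 4. CNN2, the neighbour 1033 bases ahead of ABCA7 on the same strand, stood at -0.26 ± 0.08 on the log2 scale (SE), with an adjusted p of 0.0115 in blocked limma.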

How the data were processed

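Per the labels' protocols, RNA of sorted cells was selected for mRNA, made into dUTP-marked libraries and sequenced paired end. The submitters' processing notes name STAR, SAMtools, Subread, DESeq2 and build hg38, without roles or versions. The authors deposited 1 table with a scaled read signal per library, their log2 fold change and their adjusted p-value, which is 0.05 or less in every row. All values of all 8 columns were whole multiples of 1 step (within 0.01 read), which gave size factors and reads.

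Members were the symbols matching ABCA and a digit. Members and gene lists were chosen with earlier results of these data known. The test was limma 3.58.1 (R 4.3.3) with trend on log2(value + 1), with the repeat as a block and Benjamini-Hochberg adjustment over 3666 genes at 0.05. Fold changes are on that scale, which understates low genes. Same-numbered libraries deviated together (r from 0.53 to 0.76 across genes), and the series text says that they are paired. Recovered reads were tested with edgeR 4.0.16 and DESeq2 1.42.0. Transcript length and GC content came from GENCODE release 29 (3520 genes, 96.0%), and the correction for them subtracted a lowess curve (span 0.3) per library, keeping the library's mean. Scripts were tested on simulated data. Named genes were the members, the 3 most alike genes for each, the other ABC genes and up to 2 rises and 2 falls per list; a few of these are not reported here.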

Additional observations from a re-analysis of the deposited data

Results flagged for a closer look

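In 25 groups of 4 values (levels of each member in each fraction, differences by repeat and ratios between members) the gap of the farthest value was set against the range of its group, and chance would pick out about 1.25. It picked out 1: the PHLac-high library of repeat 4 for ABCA7, at 1880.0 normalised counts against 3752 to 4112 in the other PHLac-high libraries, with a gap of 0.883 of the range on the log2 scale.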

How the results depend on the processing

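For the 5 members, the count past the threshold was 1 without the replicate block in limma, in edgeR and in DESeq2, and 1 without the block after GC and length correction. It was 2 with the replicate block and GC and length correction, 2 with GC correction alone, and 3 when genes under the median level were left out, where ABCA4 and ABCA5 are not tested. It was 5 in each fit without 1 repeat. For ABCA3 the log2 change turned to 0.0188 after GC and length correction, with and without the block. For all listed genes, the count of 3663 became 1135 (limma), 1194 (edgeR) and 1799 (DESeq2) without the block, 2360 with upper-quartile scaling, 1831 without genes under the median level, 2344 with GC and length correction (935 without the block), 2385 with GC alone, and from 3468 to 3627 without 1 repeat. Calls divided into 2153 higher and 1510 lower with the authors' size factors, 850 and 1510 with upper-quartile scaling, 1475 and 1510 with DESeq2's own size factors, and 1410 and 421 without genes under the median level. A level filter leaves fewer genes by construction. The upper-quartile factors and DESeq2's own size factors were estimated from the listed genes alone. They moved the median log2 change of these genes from 0.25 to 0.02 and 0.13. For all settings but the level filter, the cause of the changed counts was not tested. Among single members, 66 of 88 values kept direction and side of the threshold, 20 fell short of it and 2 reversed. Of 60 ratio values, 53 moved by less than 1 SD and 7 by more, all 7 under GC and length correction. ABCA5 passed under all its alternatives (adjusted p from 1.73e-06 to 0.0480). The lowest depth was 65 reads, for ABCA5.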
